A study of Mus musculus with 31 samples.

Results

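Kidney RNA-seq counts of 10 intercalated cell genes were examined in 31 mice. The genes were taken by symbol from a table of 23509 genes: Foxi1, Atp6v1b1, Atp6v1g3, Atp6v0d2, Atp6v0a4, Slc4a1, Slc4a9, Slc26a4, Rhbg and Aqp6. The rule takes rows by name, but the names were chosen with earlier results of these data known. All 10 were found and passed the filter on low counts. The groups of whole kidneys compared at 30 weeks of age were all from male mice. Pcy/CD1 mice, which carry the pcy allele on a CD1 background and are a slowly progressing model of polycystic kidney disease, received subcutaneous PBS (n = 12) or RGLS4326, an oligonucleotide inhibitor of the microRNA miR-17, at 25 mg kg−1 monthly (n = 14), in both cases from 5 weeks of age for 25 weeks. Age-matched wild-type CD1 mice (n = 5) received no injection, so injection itself also separates them from the Pcy/CD1 mice. PBS was given weekly by the label of each sample and monthly by the protocol text, so the interval between PBS injections may have differed from that of RGLS4326.

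Intercalated cells are the acid-base cells of the collecting duct and connecting tubule, where they lie among the water- and sodium-transporting principal cells. Type A cells secrete protons into the urine with a vacuolar proton pump (V-ATPase) and return bicarbonate to the blood through Slc4a1, whereas type B cells secrete bicarbonate through Slc26a4. Both types depend on the forkhead transcription factor Foxi1, and inherited loss of several of these genes is a textbook cause of distal renal tubular acidosis. In whole kidney, fewer cells of a type and less RNA per cell cannot be told apart, and this holds for every difference below.

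The sequences shown were chosen because they concern a forkhead motif near these genes and the drug's target. RefSeq promoter windows (250 bases before to 50 after the start, GRCm38.p6) were on hand for 6 of the 10 genes: Foxi1, Atp6v1b1, Atp6v1g3, Atp6v0a4, Slc26a4 and Aqp6. They were searched on both strands for the forkhead-type motifs GTAAACA and ATAAACA, which share 6 letters. The window of Atp6v1b1, a pump gene long described as a Foxi1 target, held 1 match, GTAAACA on the opposite strand 98 bases before the start, printed in capitals as TGTTTAC. It lies at chr6:83742767-83743066 on the plus strand.
Atp6v1b1 promoter: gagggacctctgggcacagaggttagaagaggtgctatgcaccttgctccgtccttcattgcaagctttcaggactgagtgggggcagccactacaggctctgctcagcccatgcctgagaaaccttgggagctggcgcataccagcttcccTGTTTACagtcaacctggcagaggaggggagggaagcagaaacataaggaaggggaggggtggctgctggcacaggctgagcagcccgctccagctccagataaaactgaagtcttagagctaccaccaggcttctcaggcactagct
No match was found in the other 5 windows. Across 32851 promoter windows of the same length, 3.65% held GTAAACA, 4.60% held ATAAACA and 7.97% held either.

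The drug's target is shown because its seed is the part that pairs with target transcripts. The mature miR-17-5p is given 5′ to 3′ with its seed, bases 2 to 8, in capitals, and the site of Atp6v0d2 with the matching bases in capitals.
mmu-miR-17-5p: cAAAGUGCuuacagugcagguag
Atp6v0d2 site: tgaccctgtgGCACTTTttgtattctc
Among the longest annotated 3′ untranslated regions of the 10 genes, from 314 to 1502 bases long, Atp6v0d2 had 1 match to the seed, starting at base 252 of 1378, and the other 9 had 0. Such a match was present in 14.5% of 13840 genes tested. A match is a description of letters and not evidence of binding.

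The libraries held between 14892524 and 27459962 counts assigned to genes (median 19961466), and each of the 10 genes had at least 307 counts in every library. Values are given as CPM, the usual unit of a gene's count relative to its library's total, here after TMM scaling, which adjusts the totals for differences in composition. Library names carry a running number that starts again at 1 and so gives 3 index series, each with mice of every group, and the third with 1 wild-type mouse. They may or may not be sequencing batches. Wild-type replicates 3 and 4 were closer to each other (chi-square per gene 2.84) than the other wild-type pairs (17.1 to 24.5) but still differed by more than sampling noise, and were kept as separate mice. RGLS4326 replicate 9 stood apart from its group: the injury gene Lcn2 was at 2.76 CPM in it, within the wild-type range of 0.944 to 11.2 CPM and outside the PBS-treated range of 205 to 1210 CPM. Results that rest on it are given with and without it.

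**Figure D1:**
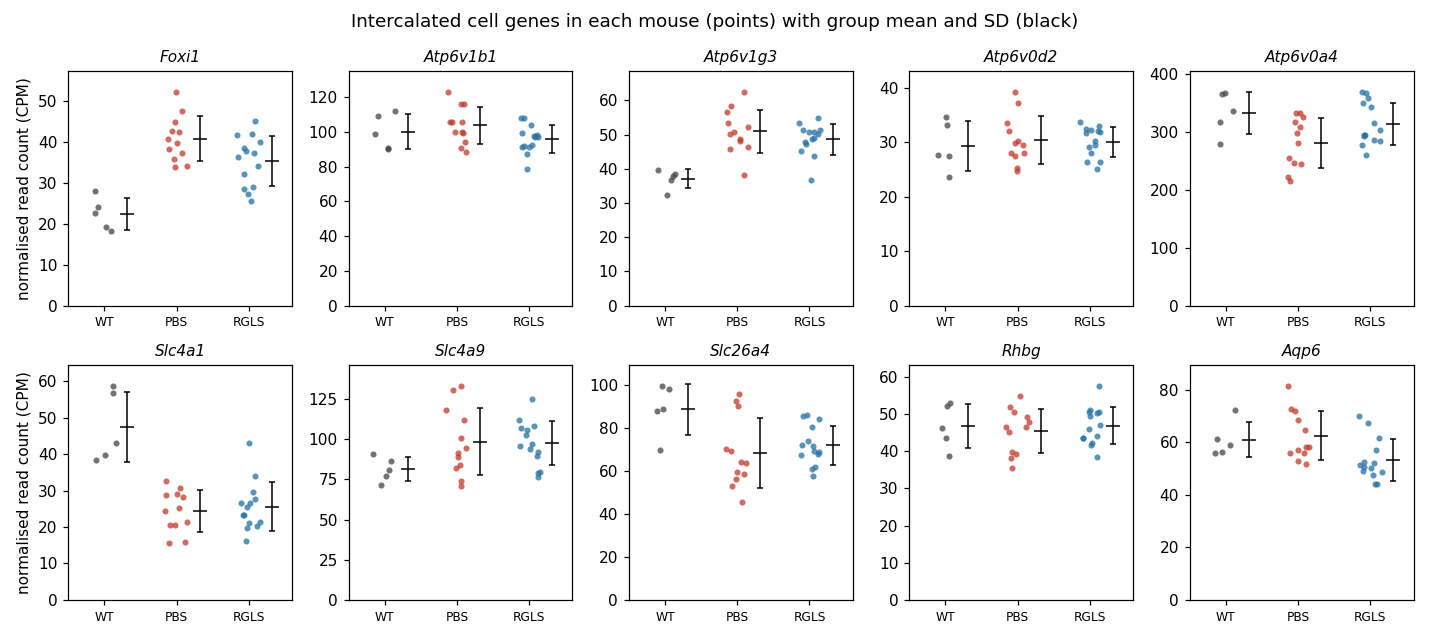
Normalised read count (CPM, linear axis from 0) of the 10 intercalated cell genes, with one point per mouse and the group mean and SD in black. WT is wild-type CD1 (n = 5), PBS and RGLS are the Pcy/CD1 groups (n = 12 and n = 14). The Foxi1 and Slc4a1 panels are those in which PBS-treated and wild-type mice do not overlap. Genes of other lists, such as Avpr2 and Car15, did not overlap either, and the share over all genes was not counted.

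In cystic kidneys the intercalated cell genes as a group overlapped with wild type in summed level, while single genes differed in both directions. Comparing PBS-treated with wild-type mice asks how these genes stood in cystic kidneys without the drug. By edgeR's quasi-likelihood test, 6 of 10 genes passed an adjusted p of 0.05, against 74.3% of the 15185 genes tested. Foxi1, Atp6v1g3 and Slc4a9 were higher (3 of 10, against 37.7% of all genes) and Slc4a1, Slc26a4 and Atp6v0a4 were lower (3 of 10, against 36.6%). Atp6v1b1, Atp6v0d2, Rhbg and Aqp6 did not pass. The median log2 fold change over the 10 genes was 0.04, beside 0.01 over all genes tested. The 10 genes together made up 768 to 906 CPM in wild-type mice, 694 to 959 in PBS-treated mice and 696 to 909 in RGLS4326-treated mice.

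Against PBS-treated mice, 1 of 10 genes passed with RGLS4326, Aqp6, which was lower. Of all genes tested, 15.8% passed, 9.15% higher and 6.66% lower, so the count among the 10 genes was near that of genes in general. At an unadjusted p under 0.05 there were 4, against 36.8% of all genes: Foxi1, Atp6v1b1 and Aqp6 were lower (17.2% of all genes were) and Atp6v0a4 was higher (19.6% were). DESeq2 gave the same counts of 1 and 4. Against wild type, RGLS4326-treated mice differed in 4 of 10 genes, against 64.9% of all genes tested: Foxi1 and Atp6v1g3 were higher (32.5% of all genes were) and Slc4a1 and Slc26a4 were lower (32.4% were). Without replicate 9 the count against wild type was 6, with Slc4a9 higher at a log2 fold change of 0.29 (adjusted p = 0.039) and Aqp6 lower at −0.23 (adjusted p = 0.036), both by edgeR. The share of all genes called in that fit is not given here.

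**Figure D2:**
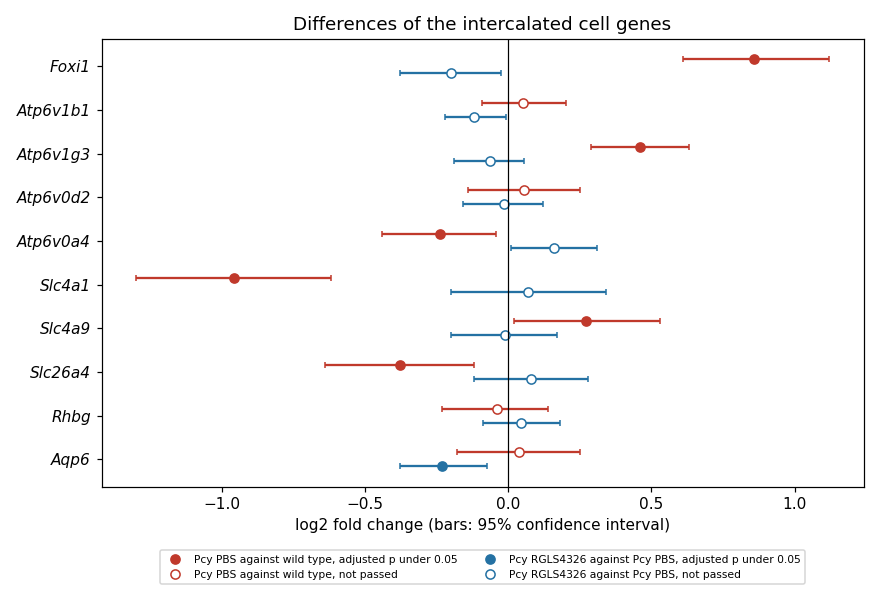
Log2 fold changes (horizontal axis) with 95% confidence intervals for the 10 genes, PBS-treated against wild-type mice in red and RGLS4326-treated against PBS-treated mice in blue. Filled points passed an adjusted p of 0.05. The red points run from −0.96 (Slc4a1) to 0.86 (Foxi1), and the blue points from −0.23 (Aqp6) to 0.16 (Atp6v0a4).

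Foxi1, the transcription factor on which intercalated cell identity depends, had the largest increase among the 10 genes. It lies on chromosome 11 (34204338 to 34208089, minus strand, GRCm38). Its values in the 5 wild-type mice were 28.1, 24.1, 18.2, 19.3 and 22.8 CPM. In PBS-treated mice the lowest was 33.9, the median 40.3 and the highest 52.3 CPM, and in RGLS4326-treated mice they were 25.6, 36.9 and 45.3. Each PBS-treated mouse was thus above each wild-type mouse, and 12 of 14 RGLS4326-treated mice were. The mean was 1.82-fold higher in PBS-treated than in wild-type mice (log2 fold change 0.86 ± 0.13 SE, adjusted p = 5.45e-07). RGLS4326-treated mice were between the other groups, at −0.20 ± 0.09 against PBS-treated mice (adjusted p = 0.09, 95% interval −0.38 to −0.03) and 0.66 ± 0.12 against wild type (adjusted p = 3.91e-05). Within index series 1 and 2 alone the difference between PBS-treated and wild-type mice was 0.64 (adjusted p = 0.0276) and 1.11 (adjusted p = 0.000616). Between RGLS4326-treated and wild-type mice it was 0.50 (adjusted p = 0.046) and 0.86 (adjusted p = 0.0874) by edgeR, so that call was lost within series 2. In that fit 61 genes of all tested were called, against 7744 within series 1.

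The proton pump genes did not move as one. Atp6v1b1 and Atp6v1g3 encode the B1 and G3 subunits of the peripheral sector, which splits ATP, and Atp6v0d2 and Atp6v0a4 the d2 and a4 subunits of the membrane sector, through which protons pass. Atp6v1b1 (chromosome 6, 83742990 to 83758855, plus strand) was at 98.8, 90.6, 112, 109 and 90.1 CPM in wild-type mice. PBS-treated mice ran from 88.4 through a median of 103 to 123 CPM, and RGLS4326-treated mice from 78.9 through 97.1 to 108. The groups overlapped, with log2 fold changes of 0.05 (95% interval −0.09 to 0.20) between PBS-treated and wild-type mice and −0.12 (−0.22 to −0.01, adjusted p = 0.111) with RGLS4326.

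Atp6v1g3 (chromosome 1, 138273738 to 138289462, plus strand) was higher in the cystic kidneys. Wild-type mice had 36.7, 32.4, 38.6, 39.6 and 37.9 CPM. PBS-treated mice had a lowest value of 38.2, a median of 50.5 and a highest of 62.4 CPM, and 11 of 12 were above the highest wild-type mouse. The difference was 1.37-fold (log2 0.46 ± 0.08 SE, adjusted p = 1.37e-05). RGLS4326-treated mice ran from 36.8 through 49.6 to 54.7 CPM. Their lowest value was that of replicate 9, and the other 13 were above each wild-type mouse. The log2 fold change with RGLS4326 was −0.07 (95% interval −0.19 to 0.06), and against wild type it was 0.39 ± 0.08 (adjusted p = 0.000135). Both calls against wild type were lost within index series 2, at 0.43 for PBS-treated (adjusted p = 0.0815) and 0.35 for RGLS4326-treated mice (adjusted p = 0.156), by edgeR. In those fits 6850 and 61 genes of all tested were called.

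Atp6v0d2 (chromosome 4, 19876841 to 19922605, minus strand), which osteoclasts and some macrophages also express, had 27.4, 23.6, 34.7, 33.2 and 27.6 CPM in wild-type mice. The range was 24.8 through a median of 29.7 to 39.2 CPM in PBS-treated mice and 25.1 through 30.9 to 33.7 CPM in RGLS4326-treated mice. Neither difference passed (0.06, 95% interval −0.14 to 0.25, and −0.02, −0.16 to 0.12). Over the same mice 8 of 8 macrophage markers rose in PBS-treated mice (37.7% of all genes did), with a summed level of 186 to 216 CPM in wild-type and 394 to 638 CPM in PBS-treated mice. Of the markers of osteoclast-type macrophages, 4 of 7 tested rose and 1 fell. The one that fell was Acp5, a phosphatase used as an osteoclast stain and the most abundant of the list, with 78.0 to 150 CPM in wild-type and 81.7 to 109 CPM in PBS-treated mice (−0.29 ± 0.09, adjusted p = 0.00376). Among those that rose were Ctsk, a bone-degrading protease (2.98 ± 0.37), Trem2 (3.26 ± 0.44) and Gpnmb (3.42 ± 0.79). The part of these markers in the level of Atp6v0d2 was not tested.

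Atp6v0a4 (chromosome 6, 38048483 to 38124586, minus strand) was the most abundant of the 10 genes per length, and proximal tubule cells are also known to express it. Wild-type mice had 336, 317, 367, 366 and 279 CPM. PBS-treated mice ran from 215 through 289 to 333 CPM, and 5 of 12 were below the lowest wild-type mouse. The mean fell by 15.5 percent (log2 fold change −0.24 ± 0.10 SE, adjusted p = 0.0274). This call depended on which wild-type mice were in the fit. Without wild-type replicate 1, 3 or 4 the value was −0.236 to −0.202 and the adjusted p 0.0514 to 0.0905, by edgeR. The call was also lost in a fit of these 2 groups alone (−0.22, adjusted p = 0.0739) and within index series 1 and 2 (−0.21 and −0.28, adjusted p = 0.314 and 0.101), by edgeR. With RGLS4326 the values ran from 260 through 300 to 369 CPM, 0.16 ± 0.07 higher on the log2 scale than with PBS, which did not pass (adjusted p = 0.114, 95% interval 0.01 to 0.31). Beside it, 7 of 7 proximal tubule markers fell in PBS-treated mice (36.6% of all genes did), with a summed level of 50900 to 65500 CPM in wild-type and 19400 to 40100 CPM in PBS-treated mice, and their part in the fall was not tested. Atp6v0a4 overlaps 3 other genes, 2 of them on the opposite strand, one being Tmem213, and the strand setting of the counting is not given in the sources used here, so reads could be shared with them.

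Each of these pump subunits, which few tissues express, has a widespread counterpart that takes the same place in the pump, so the ratio of the pair within a library does not depend on the scaling. The ratios of the B and G subunits shifted toward the tissue-restricted form in cystic kidneys. The log2 ratio of Atp6v1b1 to Atp6v1b2 ran from −2.67 to −2.26 in wild-type mice and from −1.97 to −1.49 in PBS-treated mice, without overlap. The difference of 0.67 corresponds to a 1.59-fold shift (two-sided exact permutation test, p = 0.000323, 0.00138 after Benjamini-Hochberg adjustment over 12 ratio comparisons). The ratio of Atp6v1g3 to Atp6v1g1 ran from −2.32 to −1.73 in wild-type and from −1.28 to −0.90 in PBS-treated mice, also without overlap, a 1.87-fold shift (0.90, exact permutation test, adjusted p = 0.00138). In the same mice Atp6v1b2 fell by 0.60 ± 0.09 and Atp6v1g1 fell by 0.45 ± 0.06 on the log2 scale (edgeR, adjusted p = 8.16e-07 and 3.2e-07).

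With RGLS4326 both ratios lay between those of the other groups. The Atp6v1b1 ratio ran from −2.33 to −1.71, 0.27 lower in the mean than with PBS (permutation test with 100000 resamples, adjusted p = 0.00144) and 0.40 higher than in wild type (exact permutation test, adjusted p = 0.00454). The Atp6v1g3 ratio ran from −1.81 to −1.02, 0.16 lower in the mean than with PBS (permutation test, adjusted p = 0.0236) and 0.74 higher than in wild type (exact permutation test, adjusted p = 0.00138). Without replicate 9 the differences from PBS were −0.25 and −0.12 on the same scale. For Atp6v0d2 to Atp6v0d1 and for Atp6v0a4 to Atp6v0a1 the groups overlapped, and none of the 6 comparisons passed, with adjusted p from 0.147 to 0.988 by permutation tests. The Atp6v0d2 differences were 0.19 (PBS against wild type), −0.06 (RGLS4326 against PBS) and 0.13 (RGLS4326 against wild type). Their signs were those of the B and G pairs. For Atp6v0a4 the same differences were −0.0, 0.15 and 0.14. The pairs were not tested against each other.

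**Figure D3:**
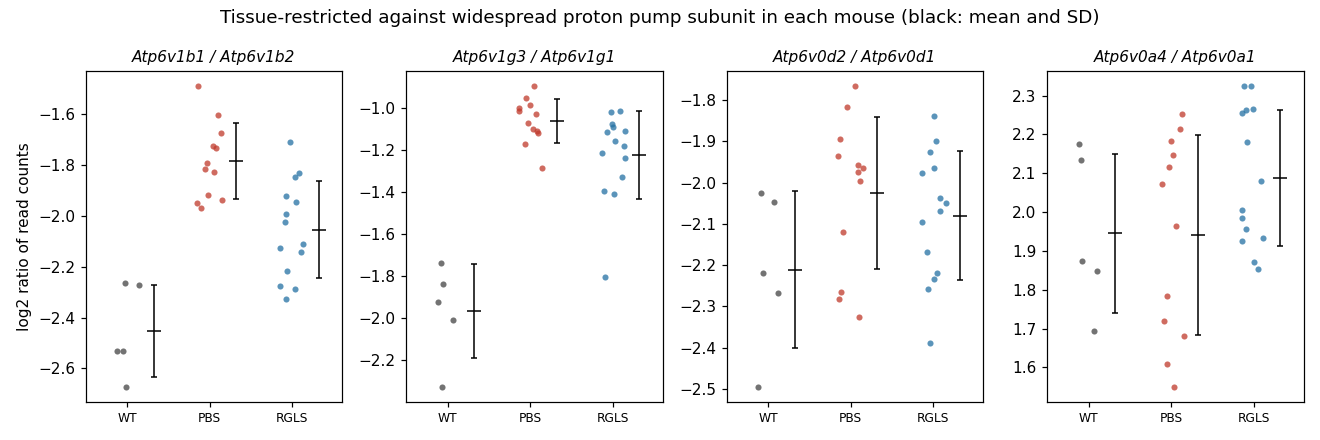
Log2 ratio of read counts of each tissue-restricted pump subunit to its widespread counterpart, with one point per mouse and the group mean and SD in black, for 5 wild-type (WT), 12 PBS-treated and 14 RGLS4326-treated (RGLS) mice. In the first 2 panels all PBS-treated mice lie above all wild-type mice, and in the last 2 the groups overlap.

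Slc4a1 had the largest decrease among the 10 genes. It encodes the chloride-bicarbonate exchanger that type A cells carry on the blood side, and red cells carry the same protein as band 3; the gene lies on chromosome 11 (102348824 to 102366203, minus strand). Wild-type mice had 56.9, 43.1, 38.5, 39.8 and 58.6 CPM. PBS-treated mice ran from 15.5 through 24.8 to 32.5 CPM, each below each wild-type mouse. The mean fell by 48.6 percent (log2 fold change −0.96 ± 0.17 SE, adjusted p = 9.48e-06). RGLS4326-treated mice ran from 16.2 through 24.5 to 43.1 CPM, and 13 of 14 were below the lowest wild-type mouse. The highest of them was replicate 9. The log2 fold change with RGLS4326 was 0.07 with it (95% interval −0.20 to 0.34) and −0.01 without it, and against wild type it was −0.89 ± 0.16 (adjusted p = 3.72e-05). Within index series 1 and 2 the difference between PBS-treated and wild-type mice was −0.98 (adjusted p = 0.0199) and −0.58 (adjusted p = 0.0111). For RGLS4326-treated against wild-type mice it was −0.95 (adjusted p = 0.00123) within series 1 and −0.45 (adjusted p = 0.346) within series 2, which holds replicate 9, by edgeR. The fit within series 2 called 61 genes of all tested.

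Erythroid markers are given here because red cell precursors also express Slc4a1. The 11 erythroid genes found summed to 6.36 to 10.3 CPM in wild-type, 4.19 to 6.57 CPM in PBS-treated and 3.96 to 9.46 CPM in RGLS4326-treated mice, and 4 of them could be tested. Hba-a1, Hba-a2, Hbb-b2 and Rhag were at 0 in every library, and Hbb-b1 had at most 3 counts. Globin copies are near identical in sequence and only uniquely mapped reads were counted, so reads of these copies could have been left out; this was not tested. Alas2, the first enzyme of heme synthesis in red cells, moved in the same direction as Slc4a1, from 4.40 to 7.57 CPM in wild-type to 0.361 to 1.53 CPM in PBS-treated mice (log2 fold change −2.76 ± 0.39, adjusted p = 3.82e-07). Ermap and Epb4.2, both under 2 CPM, rose, and Klf1 did not pass. Their part in the decrease of Slc4a1 was not tested.

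Of the type B exchangers Slc26a4 was lower, and Slc4a9 was higher at the edge of the threshold. Slc26a4 encodes pendrin, which exchanges chloride for bicarbonate on the urine side, and lies on chromosome 12 (31519827 to 31559969, minus strand). Wild-type mice had 88.8, 69.8, 99.5, 98.1 and 87.8 CPM. PBS-treated mice were the most widely spread of the groups, from 45.4 through 63.8 to 95.8 CPM, and 8 of 12 were below the lowest wild-type mouse. The mean fell by 23.1 percent (log2 fold change −0.38 ± 0.13 SE, adjusted p = 0.00934). Within index series 1 and 2 the difference was −0.40 (adjusted p = 0.0997) and −0.37 (adjusted p = 0.206), so the call was lost in both. RGLS4326-treated mice ran from 57.7 through 70.6 to 86.1 CPM, which was 0.08 above PBS on the log2 scale (95% interval −0.12 to 0.28, not passed) and −0.30 ± 0.13 against wild type (adjusted p = 0.0377). The last call was lost within index series 1 (−0.13, adjusted p = 0.468) and 2 (−0.33, adjusted p = 0.119) and in 7 of 31 fits that each left out 1 mouse: RGLS4326 replicates 2, 11 and 14 and wild-type replicates 1, 3, 4 and 5, with adjusted p from 0.0527 to 0.114, by edgeR. The fit of RGLS4326-treated against wild-type mice within series 2 called 61 genes of all tested.

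Slc4a9 encodes AE4, which sits on the blood side of type B cells, and lies on chromosome 18. Wild-type mice had 90.8, 71.8, 86.3, 80.8 and 77.1 CPM. With PBS the values ran from 70.7 through 93.1 to 133 CPM, with 7 of 12 above the highest wild-type mouse and 1 below the lowest. The increase of 1.21-fold (log2 0.27 ± 0.12 SE, adjusted p = 0.0481) passed narrowly. The call was lost in 16 of 31 fits that each left out 1 mouse, with values of 0.228 to 0.299 and adjusted p up to 0.119. These were PBS replicates 1, 2, 7, 8, 10 and 12, RGLS4326 replicates 1, 2, 4, 5, 7 and 12, and wild-type replicates 2 to 5. The call was also lost without a filter (0.276, adjusted p = 0.0559), with 2 groups only (0.299, adjusted p = 0.0525), with the replicate block (0.144, adjusted p = 0.215) and within index series 1 (0.129, adjusted p = 0.535) and 2 (0.368, adjusted p = 0.221), by edgeR. RGLS4326-treated mice ran from 76.6 through 96.6 to 125 CPM, level with PBS (−0.01, 95% interval −0.20 to 0.17). Against wild type they were at 0.26 ± 0.12 (edgeR, adjusted p = 0.0616), with 10 of 14 above the highest wild-type mouse. That difference was called by edgeR with 2 groups only (adjusted p = 0.0169), with the replicate block (0.00273) and in 6 of the 31 leave-out fits. Within index series 1 and 2 it did not pass (edgeR, adjusted p = 0.0952 and 0.166).

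Rhbg, an ammonia transporter of the blood side, did not pass in any of the 3 comparisons. Wild-type mice had 46.2, 38.8, 52.2, 53.0 and 43.5 CPM. With PBS the values ran from 35.5 through 46.6 to 54.8 CPM and with RGLS4326 from 38.4 through 46.6 to 57.5 CPM, all overlapping. The log2 fold changes were −0.04 (95% interval −0.23 to 0.14) between PBS-treated and wild-type mice and 0.05 (−0.09 to 0.18) with RGLS4326. Rhbg lies on chromosome 3 (88242874 to 88254709, minus strand) and overlaps another protein-coding gene model on the same strand, Gm38392.

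Aqp6, a water and anion channel of intracellular vesicles in type A cells, was the 1 gene of the 10 called with RGLS4326, and that call was narrow. It lies on chromosome 15 (99601400 to 99605477, plus strand). Wild-type mice had 72.4, 56.0, 59.1, 56.3 and 61.3 CPM. PBS-treated mice ran from 51.9 through 58.3 to 81.4 CPM, a log2 fold change of 0.04 (95% interval −0.18 to 0.25). RGLS4326-treated mice ran from 44.0 through 51.1 to 70.2 CPM, and 8 of 14 were below the lowest PBS-treated mouse. The mean fell by 14.7 percent (log2 fold change −0.23 ± 0.08 SE, adjusted p = 0.0418). Replicate 9 was the highest RGLS4326-treated mouse, and without it the value was −0.26 (adjusted p = 0.0293). The call was lost in 11 of 31 fits that each left out 1 mouse: PBS replicates 2, 3, 5, 9 and 10 and RGLS4326 replicates 3, 6, 7, 8, 10 and 13, with values of −0.238 to −0.189 and adjusted p from 0.0548 to 0.0886. It was also lost by edgeR without a filter (−0.23, adjusted p = 0.0519), with 2 groups only (−0.23, adjusted p = 0.0542) and with the replicate block (−0.26, adjusted p = 0.106). Within index series 1, 2 and 3 the difference was −0.23, −0.11 and −0.34, none of which passed (lowest adjusted p = 0.197, edgeR). In each of these fits 0 of all genes tested were called, so they cannot set Aqp6 apart.

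Levels of different genes were compared as CPM per kilobase of merged exons. In wild-type mice Atp6v0a4 led with a mean of 67.0 CPM per kilobase, and its range of 56.2 to 73.8 lay above those of all the others. Slc26a4 (28.6), Aqp6 (25.2), Rhbg (24.1), Atp6v1b1 (22.9) and Atp6v1g3 (19.6) followed, and neighbours in that order overlapped over the 5 mice. Slc4a9 (12.7), Atp6v0d2 (10.8), Slc4a1 (9.69) and Foxi1 (9.54) formed the lower end, again with overlapping neighbours. Atp6v1g3 and Slc4a9 did not overlap, with lowest and highest values of 17.2 and 14.2 CPM per kilobase. In PBS-treated mice the mean of Foxi1 was 17.3 and that of Slc4a1 4.99 CPM per kilobase, so the pair that was level in wild type stood apart.

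Of 20 other V-ATPase subunits and accessory genes tested, 13 were lower and 2 higher in PBS-treated than in wild-type mice, with a median log2 fold change of −0.33. Of all genes tested 36.6% were lower and 37.7% higher, with a median of 0.01. Lower genes included Atp6v0a2 (−0.52 ± 0.06, adjusted p = 2.03e-08), Atp6v1h (−0.57 ± 0.07) and Atp6v1c1 (−0.40 ± 0.05). The 2 higher genes were Tcirg1, the a3 subunit used by osteoclasts and lysosomes of immune cells (0.77 ± 0.12), and Atp6v1g2 (0.51 ± 0.14). With RGLS4326, 4 of 20 were higher than with PBS (9.15% of all genes were), among them Atp6v1d (0.20 ± 0.05, adjusted p = 0.0172), Atp6v1h (0.17 ± 0.05) and Atp6v1c1 (0.12 ± 0.04), and 0 were lower at either an adjusted or an unadjusted p under 0.05. DESeq2 called 5. Without replicate 9, 1 of the 20 was called, and the share of all genes called in that fit is not given here.

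Other genes of intercalated cells moved in both directions. Of 26 such genes, 12 were higher and 4 lower in PBS-treated mice (median log2 fold change 0.19, beside 0.01 over all genes), where 37.7% of all genes were higher and 36.6% lower. Car15, a membrane carbonic anhydrase, rose from a range of 76.2 to 89.6 CPM in wild-type to 144 to 334 CPM in PBS-treated mice (1.62 ± 0.18, adjusted p = 1.52e-08). Slc4a8, a sodium-driven bicarbonate exchanger of type B cells, rose by 0.71 ± 0.09. Atp4a, the gastric-type proton-potassium pump, fell from 10.8 to 76.0 CPM in wild-type to 3.59 to 6.91 CPM in PBS-treated mice (−2.59 ± 0.25, adjusted p = 2.31e-09), with the wild-type mice themselves spread widely. The colonic-type pump Atp12a went the other way, from 0.594 to 1.32 CPM to 3.11 to 17.5 CPM.

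With RGLS4326, 4 of these 26 genes were lower than with PBS and 0 were higher by edgeR, where 6.66% of all genes were lower and 9.15% higher. At an unadjusted p under 0.05, 7 were lower and 2 higher (17.2% and 19.6% of all genes), and DESeq2 also called 4. Atp12a was at −1.10 ± 0.30 (adjusted p = 0.0223), Dmrt2, a transcription factor of type A cells, at −0.48 ± 0.13 (adjusted p = 0.0238) and Slc4a8 at −0.22 ± 0.06 (adjusted p = 0.0259). These genes were higher in PBS-treated than in wild-type mice, and the treatment values were measured against the same PBS-treated mice.

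Principal cells share the collecting duct, and their markers rose while the 10 intercalated cell genes did not rise as a group. Of 10 principal cell markers 9 were higher and 1 lower (Aqp4) in PBS-treated than in wild-type mice, with a median log2 fold change of 1.46 beside 0.04 for the intercalated cell genes and 0.01 for all genes, of which 37.7% were higher and 36.6% lower. Avpr2, the vasopressin receptor, was at 1.92 ± 0.14 (adjusted p = 3.96e-11), Hsd11b2, which shields the mineralocorticoid receptor from glucocorticoids, at 1.55 ± 0.15, and the sodium channel subunit Scnn1g at 1.26 ± 0.13. The mean log2 level of the intercalated cell genes minus that of the principal cell markers was −0.06 to 0.65 in wild-type mice and −1.51 to −0.64 in PBS-treated mice, without overlap. With RGLS4326, 7 of 10 principal cell markers were lower than with PBS (6.66% of all genes were), such as Scnn1b (−0.41 ± 0.09), Aqp3 (−0.47 ± 0.11) and Avpr2 (−0.39 ± 0.09), and 0 were higher (0 at an unadjusted p under 0.05; DESeq2 called 8 lower). The difference between the lists ran from −0.97 to 0.02, with the highest value in replicate 9.

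**Figure D4:**
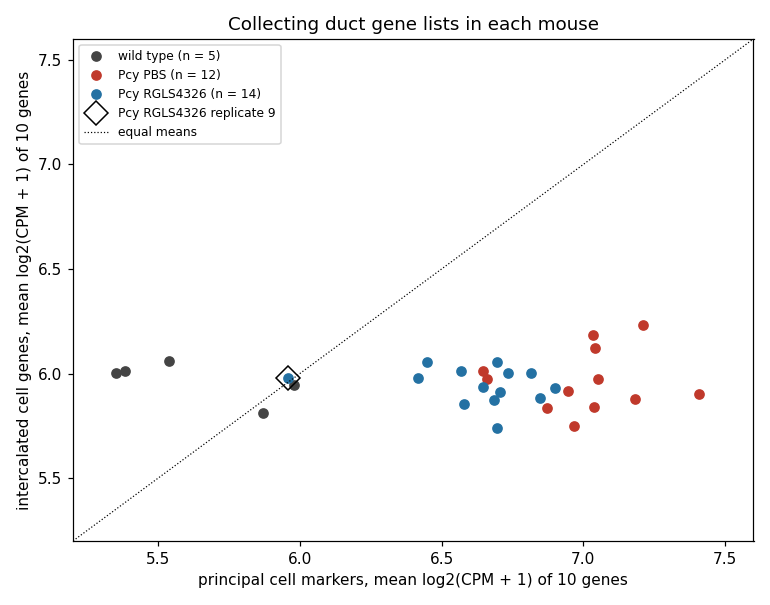
Mean log2(CPM + 1) of the 10 intercalated cell genes (vertical axis) against that of 10 principal cell markers (horizontal axis), with one point per mouse for 5 wild-type, 12 PBS-treated and 14 RGLS4326-treated mice and a dotted line of equal means. The groups spread along the horizontal axis and overlap on the vertical one, and RGLS4326 replicate 9 (diamond) lies at a difference of 0.02.

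Counts for other segments and cell types stand beside 36.6% of all genes lower and 37.7% higher in PBS-treated against wild-type mice, and 6.66% lower and 9.15% higher with RGLS4326. These shares are from the fit of all mice, and those of the fit without replicate 9 are not given here. Among 12 acid-base genes outside intercalated cells, 8 fell and 2 rose in PBS-treated mice, with Slc4a4, the proximal bicarbonate exit pathway, at −1.11 ± 0.15, and Glud1, which releases ammonium from glutamate, at −0.74 ± 0.08. With RGLS4326, 3 of the 12 were higher, among them Pck1 (0.56 ± 0.19) and Slc4a4 (0.33 ± 0.11), and 1 was without replicate 9. The proximal tubule transporter genes Slc22a6 (−1.25 ± 0.13), Slc34a1 (−1.21 ± 0.18) and Lrp2 (−1.34 ± 0.20) were among the 7 proximal markers that fell, and 2 of 7 were higher with RGLS4326 (1 without replicate 9). Of 6 thick limb and distal convoluted tubule markers 3 fell, including Pvalb (−3.83 ± 0.50) and Slc12a3 (−0.68 ± 0.12), and 1 rose. All 5 fibroblast markers, such as Col3a1 (3.21 ± 0.33), and all 5 tubular injury markers, such as Lcn2 (6.68 ± 0.85) and Vcam1 (3.23 ± 0.37), rose, and 1 of 4 podocyte markers did (Synpo, 0.95 ± 0.17). How far these shifts in the make-up of the tissue carry the share of intercalated cell reads was not tested.

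Among cystic mice, some of the 10 genes varied together, and all values of a mouse share 1 library and its scaling. Over the 12 PBS-treated mice, 35 of 45 gene pairs had a positive Pearson's r of log2(CPM + 1), with a median of 0.41 and a range of −0.68 to 0.91. Over all pairs of the 13784 genes that averaged 1 CPM or more, 49.9% were positive in these mice, with a median r of 0.0. The closest pair was Atp6v0d2 and Slc26a4, with r = 0.91 and Spearman's rho = 0.90 (permutation p = 8e-05 and 0.0003, adjusted over 90 relations 0.0072 and 0.027). Without the 2 mice farthest from the median of Atp6v0d2 r was 0.85, and centred on the index series it was 0.90. In the 13 RGLS4326-treated mice other than replicate 9 the same pair had r = 0.83 and rho = 0.81 (adjusted permutation p = 0.0108 and 0.0349). In that group 33 of 45 pairs were positive, with a median r of 0.29, where 49.8% of all pairs were positive.

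Within both cystic groups, 2 of the 10 genes had an adjusted p under 0.05 for a relation to a tubular injury marker. The level of Lcn2, which encodes the injury marker NGAL, was set against each gene in each group, giving 20 relations. Slc4a1 was lower where Lcn2 was higher, with r = −0.81 and rho = −0.73 over 12 PBS-treated mice (permutation p = 0.00153 and 0.00946, adjusted 0.0102 and 0.0427) and r = −0.75 and rho = −0.76 over 13 RGLS4326-treated mice other than replicate 9 (permutation p = 0.00351 for both, adjusted 0.0175 and 0.0343). Atp6v0a4 behaved likewise, with r = −0.88 and rho = −0.86 (adjusted permutation p = 0.0042 and 0.0138) and r = −0.85 and rho = −0.70 (adjusted permutation p = 0.0061 and 0.0427). Without the 2 mice farthest from the median of Lcn2, r was −0.77 and −0.81 for Slc4a1 and −0.86 and −0.84 for Atp6v0a4. Centred on the index series it was −0.82 and −0.88, and −0.92 and −0.90. Such relations were not rare: of 13783 genes, 5.22% had an r with Lcn2 at least as negative as that of Slc4a1 in both groups, and 1.30% one at least as negative as that of Atp6v0a4.

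Aqp6 rose with Lcn2 in PBS-treated mice (r = 0.71, rho = 0.76, adjusted permutation p = 0.0427 and 0.0343) and gave r = 0.30 in RGLS4326-treated mice (adjusted permutation p = 0.427); the difference between the groups was not tested. Foxi1 gave r = 0.44 and 0.57 with adjusted permutation p of 0.277 and 0.113, so its relation to Lcn2 did not pass. Each index series holds 4 or 5 mice of a group, too few for a value of its own.

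**Figure D5:**
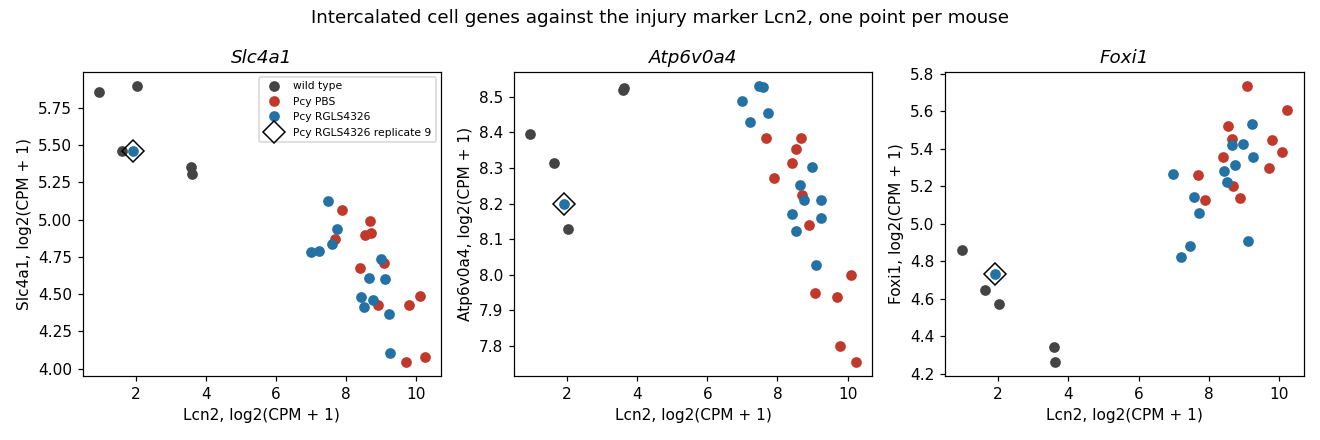
Log2(CPM + 1) of Slc4a1, Atp6v0a4 and Foxi1 (vertical axes) against that of Lcn2 (horizontal axis), with one point per mouse for wild-type, PBS-treated and RGLS4326-treated mice and a diamond for RGLS4326 replicate 9. Within both cystic groups Slc4a1 and Atp6v0a4 decline toward the right, and replicate 9 lies among the wild-type mice.

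The genes most like a pump gene and an exchanger gene were sought over the 13784 genes that averaged 1 CPM or more, by Pearson's r of log2(CPM + 1) centred on the group means over 31 mice. For Atp6v1b1 they were Nudt4 (0.78), Plag1 (0.78), Tmem52b (0.74), Insrr (0.70) and Atp6v1c2 (0.69), of which Insrr is a receptor that responds to alkali and Atp6v1c2 a pump subunit. For Slc26a4 they included Insrr (0.91), Oxgr1 (0.77), Ptgfr (0.77) and Tmem26 (0.76); Oxgr1 is the receptor for 2-oxoglutarate of type B cells. Among the 10 genes themselves Slc26a4 was most like Atp6v0d2 (0.83) and Slc4a9 (0.74). Foxi1 had r of 0.09 with Atp6v1b1 and −0.15 with Slc26a4. Insrr itself did not pass between PBS-treated and wild-type mice (−0.05 ± 0.11, adjusted p = 0.657).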

How the data were processed

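Kidney polyA RNA of 31 mice was sequenced by the authors from TruSeq stranded mRNA libraries. Per the labels and the paper's methods, reads were trimmed with Trim Galore, aligned with STAR to GRCm38 (mm10), and the uniquely mapped reads counted with HTSeq 0.6.1. The deposited values are whole-number counts per gene, not normalized; the annotation and the strand setting of the counting are not given in the sources used here. HTSeq's 5 lines that name no gene were left out of library sizes. They made up 26.9% to 31.1% of a file's total, most of it alignments that were not unique; reads outside genes or ambiguous between genes were 10.8% to 12.9% of the total without those.

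Counts were fitted with edgeR 4.0.16 (filterByExpr by group, TMM, quasi-likelihood F test, all 31 mice in 1 model), with Benjamini-Hochberg adjustment over 15185 genes and a call at an adjusted p under 0.05; contrasts share control mice. In a test on simulated data for RGLS4326 against PBS, 196 of 200 changed genes among 15099 were recovered and 7 unchanged ones called. The planted changes were all larger than those of the members with RGLS4326, so recovery of changes as small as those was not tested. Ratios used counts plus 1; correlations used log2(CPM + 1), with 100000 permutations. Exon lengths came from GENCODE vM21. The members and gene lists were chosen with earlier results of these data known. Named from each other list were up to 3 genes of smallest p in PBS against wild type and up to 3 in RGLS4326 against PBS, with the pump pairs; Aqp4, Atp6v1g2, Tcirg1, Klf1, Tmem213 and the globin genes were named after their values were seen. Alternatives were RLE factors, no filter, DESeq2 1.42.0, 2 groups only, index series, a replicate block, a size threshold, other pseudocounts and leaving out mice. A few named-gene values are not reported here.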

Additional observations from a re-analysis of the deposited data

How the results depend on the processing

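Direction and call of Foxi1, Slc4a1 and Atp6v1g3 between PBS-treated and wild-type mice held under RLE factors, DESeq2, no filter, 2 groups only, the index series as a covariate and each mouse left out; within index series 2, Atp6v1g3 was at 0.43 (adjusted p = 0.0815). The number of the 10 genes called between PBS-treated and wild-type mice (6) was 3 and 2 within index series 1 and 2, and 2 with an absolute log2 fold change over 0.5. In those index series 6378 and 6850 genes of all tested were called, against 11281 over all mice. Between RGLS4326 and PBS the count (1) was 0 by edgeR without a filter (4 at an unadjusted p under 0.05), in a fit of 2 groups (4), in a fit with the replicate block (1), in index series 1 (1), 2 (0) and 3 (1) fitted alone, and with the size threshold. DESeq2 called 1. In each index series fitted alone 0 of all genes tested were called, so those counts cannot single out the 10 genes. Against wild type the RGLS4326 count (4) was 0 within index series 2 (3 at an unadjusted p) and 2 with the size threshold. Within series 2, 61 genes of all tested were called, against 7744 within series 1 and 9861 over all mice. Calls of nearly all genes were thus lost there. With 1 mouse left out the counts ran from 4 to 6, 0 to 1 and 3 to 6. Shares of all genes are not given here for the size threshold or for refits other than those within index series.

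Genes whose value over all mice lay near 0 could change sign. These were, between PBS-treated and wild-type mice, Rhbg (0.168) and Aqp6 (−0.119) within index series 1 and Atp6v1b1 (−0.074) and Atp6v0d2 (−0.098) within series 2; between RGLS4326 and PBS, Atp6v1g3 (0.005), Atp6v0d2 (0.131), Slc4a9 (0.191) and Rhbg (−0.059) within series 1 and Slc26a4 (−0.044) within series 3; and between RGLS4326 and wild type, Atp6v1b1 (0.013) within series 1 and Atp6v0d2 (−0.112) and Rhbg (−0.067) within series 2. With 1 mouse left out, against wild type, PBS-treated mice ran from −0.009 to 0.127 for Atp6v0d2, −0.097 to 0.009 for Rhbg and −0.004 to 0.108 for Aqp6; RGLS4326 against PBS from −0.040 to 0.022 for Atp6v0d2, −0.009 to 0.113 for Slc4a1 and −0.050 to 0.033 for Slc4a9; and RGLS4326 against wild type from −0.025 to 0.112 for Atp6v0d2 and −0.050 to 0.056 for Rhbg. The Atp6v0a4 to Atp6v0a1 ratio ran from −0.067 to 0.054 between PBS-treated and wild-type mice. The causes were not tested.

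The replicate numbers did not pair the mice: deviations of same-numbered mice had a mean correlation of 0.09, −0.09 and −0.03 over 5, 12 and 5 pairs, and 2, 1 and 0 of them matched best with their own number. With the replicate block the counts called were 5, 0 and 6. Atp6v0d2 (−0.04) and Rhbg (0.031) changed sign against wild type, and Atp6v0d2 (0.011) and Slc4a9 (0.025) between RGLS4326 and PBS. The pump ratios under the block were 0.72 and 0.50 for Atp6v1b1 and 0.89 and 0.85 for Atp6v1g3 against wild type, each at the smallest exact p that 5 pairs allow (0.0625), and −0.14 for Atp6v1g3 between RGLS4326 and PBS (exact sign-flip p = 0.0547).

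Chosen after seeing the data, the other lists were recounted without RGLS4326 replicate 9 and with the index series as a covariate. Between RGLS4326 and PBS the calls were 1 for other V-ATPase subunits, 1 for acid-base genes elsewhere, 1 for proximal tubule, 0 for thick limb and distal tubule (2 of 6 at an unadjusted p with all mice, by edgeR and by DESeq2) and 1 for macrophage markers, and against wild type 2 for podocyte markers; other counts, the covariate's included, stayed within 1.5 times those over all mice. The share of all genes called without replicate 9 is not given here, so a general change in calls cannot be told from one particular to these lists. Index series 3 holds 1 wild-type mouse, so comparisons with wild type were not run within it.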
